A study of Mus musculus with 4 samples.

Results

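Of 10830 strong SRSF2 binding sites in gene regions, 1720 (15.9%, 95% interval 15.2 to 16.6) had no SRSF1 site within 500 nt on the same strand. These 1720 SRSF2 peaks, which lie in 1051 host units, are described here. They were chosen from the peak lists by 4 conditions: a deposited score of at least 13, a host unit that the authors did not call nongenic, a chromosome other than the mitochondrial one, and no SRSF1 midpoint within 500 nt. The whole SRSF2 list holds 56336 peaks and the SRSF1 list 50983. The 1720 peaks are called SRSF1-distant below, and the 9110 strong SRSF2 peaks with an SRSF1 midpoint within 500 nt are called SRSF1-near. The score and the distance chose the peaks, so both are given as descriptions and no test was made on them.

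The data come from CLIP-seq, in which ultraviolet light crosslinks a protein to the RNA it touches, the protein is precipitated and the attached RNA fragments are sequenced. SRSF1 (SF2/ASF) and SRSF2 (SC35) were each precipitated with an antibody against an HA tag from mouse embryonic fibroblasts (MEFs). Each protein was measured in its own tetracycline-repressible MEF line, called SRSF1 or SRSF2 tet-repressible MEFs, both grown without tetracycline. One library per protein was analysed, so protein and cell line cannot be told apart and no value has a replicate error. Libraries made after siRNA treatment (siControl, siSRSF2) are not used here. Intervals are exact (Clopper-Pearson) 95% binomial intervals, or order-statistic intervals for medians. They cover counting error only, and peaks of one host unit are not independent.

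SRSF1 and SRSF2 are SR proteins, a family with RNA-recognition domains that contact RNA and a tail of arginine and serine repeats that contacts other splicing factors. They bind exonic enhancers and help the spliceosome to choose exons, and they can cooperate or compete at the same exon. SRSF2 stays in the nucleus, where it is a classic marker of nuclear speckles, while SRSF1 shuttles to the cytoplasm. By its title the study is about cooperation and competition between SR proteins. A strong SRSF2 site without an SRSF1 site close by is a place where the lists show one protein alone.

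The host unit is the transcript or cluster that the authors put in each peak's name. Of the 1720 SRSF1-distant peaks, 1430 lay in numbered clusters without a gene name, 287 in RefSeq transcripts and 3 in UCSC transcripts, a make-up of 83.1%, 16.7% and 0.174%. The SRSF1-near peaks had 83.6%, 16.2% and 0.241%, so both sets drew on the same kinds of unit. Gene symbols were found for 195 host genes, which hold 281 of the peaks; of all 1733 strong SRSF2 peaks in genes with a symbol these made up 16.2%. Peaks in unnamed units are given by their mm9 position. The genome at hand is of a later build, so no exon, intron, splice site or sequence was assigned to a peak.

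An SRSF1-distant peak became rarer as the SRSF2 score increased. Of the strong peaks scoring 13 to 15, 21.3% (20.2 to 22.4) were SRSF1-distant. The share was 14.1% at scores of 16 to 20, 7.46% at 21 to 30, 4.78% at 31 to 50 and 2.42% (0.502 to 6.91) above 50, where 3 of 124 peaks qualified. Below the threshold, 42.5% of the 40468 genic SRSF2 peaks of lower score had no SRSF1 midpoint within 500 nt, and over all 51298 genic SRSF2 peaks the share was 36.9%. The median score was 15 for SRSF1-distant and 16 for SRSF1-near peaks, and the highest SRSF1-distant score was 107. Only 195 of the 1720 peaks scored 20 or more and 27 scored 30 or more. With the lists swapped, 1009 of 7555 strong SRSF1 peaks (13.4%) had no SRSF2 midpoint within 500 nt.

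**Figure D1:**
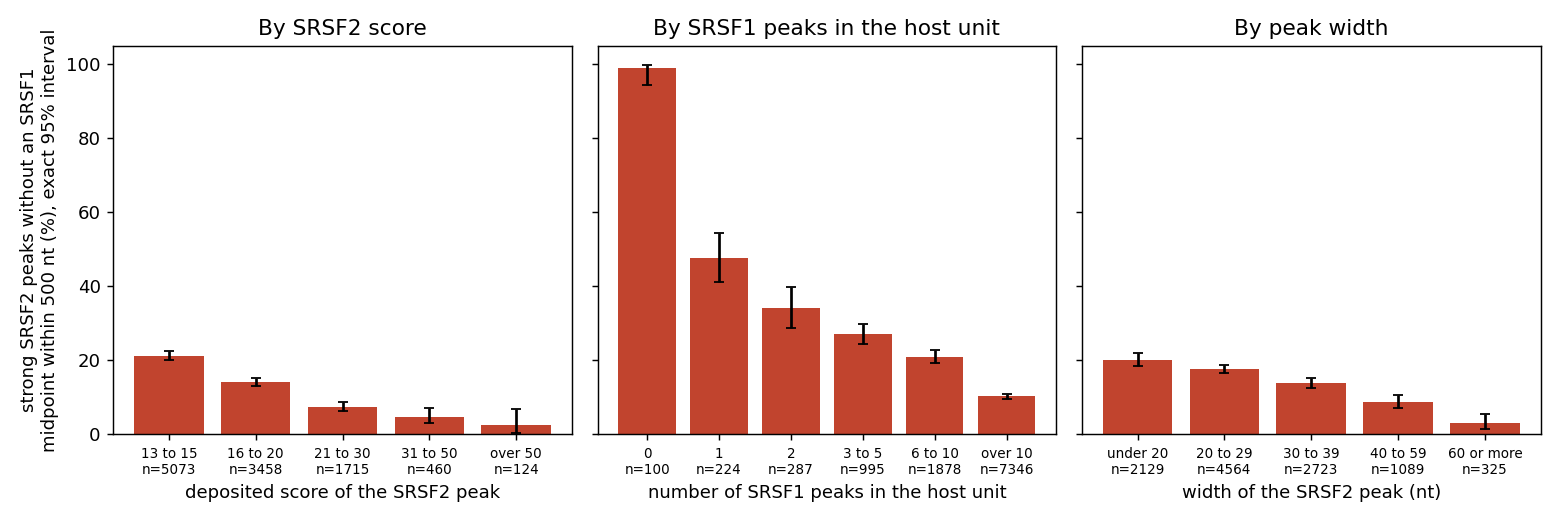
Bars give the percentage of strong SRSF2 peaks without an SRSF1 midpoint within 500 nt, by SRSF2 score (left), by number of SRSF1 peaks in the host unit (middle) and by peak width in nt (right), with exact 95% intervals and the number of peaks in each class. The share goes from 21.3% to 2.42% across score classes, from 99% to 10.3% across SRSF1 classes and from 20.2% to 3.08% across width classes.

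The edges of the rule cut through a continuous range. Of the SRSF1-distant peaks 487 had a score of exactly 13, while 678 peaks with a score of 12 met the other conditions. For 64 of them the nearest SRSF1 midpoint was at most 550 nt away, and 57 SRSF1-near peaks lay at over 450 nt. Peaks just beyond the limit had a median width of 22.5 nt and a median score of 15, and those just within it 23 nt and 15. Another SRSF2 midpoint lay within 500 nt of 53.1% just beyond and 63.2% just within the limit. The median host unit held 12 and 9 SRSF1 peaks.

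Most SRSF1-distant peaks were far from SRSF1 only locally, since 1621 of the 1720 (94.2%, 93.0 to 95.3) lay in a host unit that carried SRSF1 peaks elsewhere. Over all strong SRSF2 peaks this share was 99.1%. The median host unit held 9 SRSF1 peaks for an SRSF1-distant peak and 18 for an SRSF1-near one, and 12 against 21 SRSF2 peaks. In units with 1 SRSF1 peak, 47.8% of the strong SRSF2 peaks were SRSF1-distant, and in units with over 10 it was 10.3%. Units spanning at least 1000 nt had a median of 4.29 SRSF1 peaks per 10 kb for SRSF1-distant and 6.03 for SRSF1-near peaks. The rule itself favours units with few SRSF1 peaks, so these differences are not findings about the proteins. The RNA level of the host units was not measured in these lists, and its part in the shares was not tested; in bulk samples fewer cells of a type and less RNA per cell cannot be told apart.

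The distance to the nearest SRSF1 midpoint had a median of 1793 nt (1679 to 1936), with quartiles of 921 and 3957 nt. It was under 1000 nt for 478 peaks, 1000 to 2000 nt for 444, 2000 to 5000 nt for 432, 5000 to 10000 nt for 160, up to 50000 nt for 148 and beyond that for 58. An SRSF1 midpoint lay within 500 nt on the opposite strand of 22 peaks.

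SRSF1-distant peaks stood between SRSF1 sites of the same unit less often than the other strong peaks. Of the 1720, 932 (54.2%, 51.8 to 56.6) lay between listed SRSF1 peaks of their host unit, 399 (23.2%) upstream of the first, 290 (16.9%) downstream of the last and 99 (5.76%) in a unit with no SRSF1 peak. Between SRSF1 peaks lay 83.8% of all strong SRSF2 peaks and 89.4% (88.7 to 90.0) of SRSF1-near ones. The distance in the rule bears on this place too, so the shares are a description. The authors numbered the peaks of a unit along the chromosome, and some numbers are missing from the lists. For 576 of the 932 (61.8%, 58.6 to 64.9) the flanking SRSF1 peaks had consecutive numbers, so that no unlisted SRSF1 number fell between them. For the others at least 1 number was skipped between the flanking peaks. What a skipped number stands for is not stated, so whether an SRSF1 peak lay there is unknown.

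Peaks more than 5000 nt from SRSF1 had a median position towards the 5′ end of the listed peaks, which depended on the outermost peaks of units. Position was measured from 0% at the first to 100% at the last listed peak of either protein, in the direction of transcription, in units spanning at least 1000 nt. The 319 SRSF1-distant peaks in such units that lay over 5000 nt from SRSF1 had a median position of 17.1% (4.20 to 26.6), and 51.4% of them (45.8 to 57.0) fell in the first 20% of the unit and 21.6% in the last 20%. Of all SRSF1-distant peaks 29.2% fell in the first 20%, and of all strong SRSF2 peaks 25.8%. At 500 to 1000 nt the median was 65.7% (58.9 to 71.2), at 1000 to 2000 nt 54.2%, and at 2000 to 5000 nt 51.4%. All 1653 peaks together had a median of 51.9% and the SRSF1-near peaks 50.5%. Where the unit carried SRSF1 and the SRSF2 peak lay outside the stretch of SRSF1 peaks, 156 of the peaks over 5000 nt away were upstream of the first and 48 downstream of the last.

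The same counts for SRSF1 were more even. Of the strong SRSF1 peaks over 5000 nt from SRSF2, 41 lay upstream of the first SRSF2 peak of the unit and 45 downstream of the last, and their median position was 47.9% (38.1 to 64.9). Among SRSF1-near SRSF2 peaks outside the SRSF1 stretch, 581 were upstream and 388 downstream. The upstream share was thus 76.5% (70.0 to 82.1) for SRSF2 peaks over 5000 nt away, 59.96% (56.8 to 63.1) for SRSF1-near SRSF2 peaks and 47.7% (36.8 to 58.7) for the SRSF1 peaks over 5000 nt away. The split by distance was chosen after the values were seen. It rests on the outermost peaks: without those that are the first or last listed peak of the unit, the median was 38.2% (28.2 to 45.5).

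**Figure D2:**
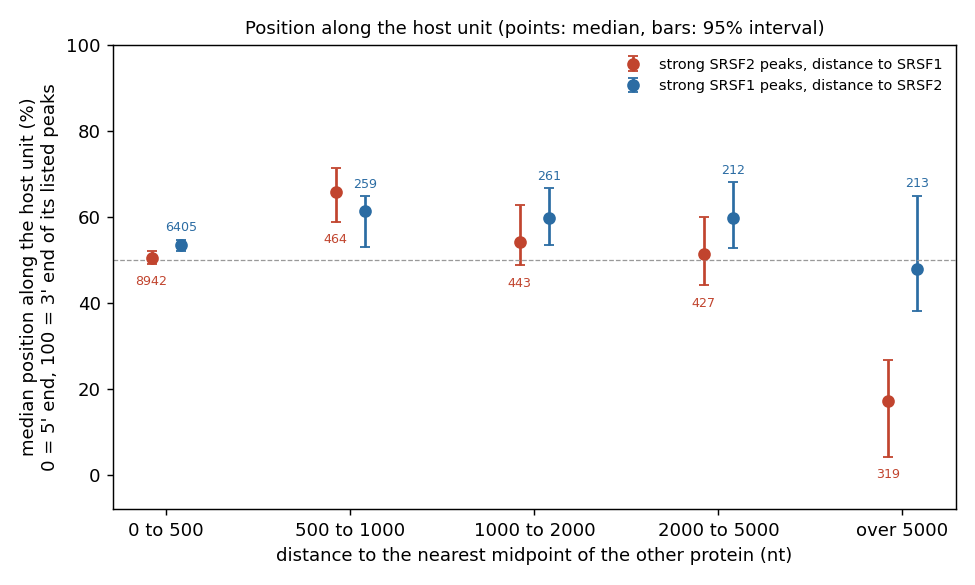
Points give the median position along the host unit (0% at the 5′ end and 100% at the 3′ end of its listed peaks) against the distance to the nearest midpoint of the other protein in nt, for strong SRSF2 peaks (red) and strong SRSF1 peaks (blue). Bars are 95% order-statistic intervals and the numbers count peaks; beyond 5000 nt the SRSF2 median is 17.1% and the SRSF1 median 47.9%.

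Among named units spanning at least 1000 nt, 55 peaks in 46 genes were over 5000 nt from SRSF1, and the 10 with the highest scores show both ends of the unit. Hnrnpd, which encodes an AU-rich element binding protein, had peaks of score 21 (chromosome 5, minus strand, 100407408 to 100407468) and 17 (100407624 to 100407643) at 1.18% and 0.0574% of the unit. The nearest SRSF1 midpoint lay 11083 and 11279 nt away, although Hnrnpd carried 21 SRSF1 and 23 SRSF2 peaks in all. Psmd12, a subunit of the proteasome lid, had paired peaks of score 17 and 14 at its 5′ end (chromosome 11, plus strand, 107340920 to 107340948 and 107340842 to 107340874), 6883 and 6959 nt from SRSF1. Srsf3, itself an SR protein gene, had its first listed peak 6028 nt from the nearest SRSF1 midpoint (chromosome 17, plus strand, 29169627 to 29169669, score 17). These 5 peaks all lay upstream of every listed SRSF1 peak of their unit.

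Tra2b showed the opposite arrangement. It encodes a splicing activator related to the SR proteins, and its highest SRSF2 score, 22, was at the 3′ end of the unit (chromosome 16, minus strand, 22249131 to 22249177), past the last SRSF1 peak, with the nearest SRSF1 midpoint 9999.5 nt away. The unit had 7 SRSF2 peaks, with scores down to 9, and 6 SRSF1 peaks. Akap8, an anchoring protein of protein kinase A, likewise had a peak of score 17 at 99.9% of its unit (chromosome 17, minus strand, 32442243 to 32442270). Within the unit lay the peaks of Mast2, a kinase (chromosome 4, 116025609 to 116025641, score 19, 20373 nt from SRSF1), Gars, glycyl-tRNA synthetase (chromosome 6, 54996449 to 54996483, score 19) and Lrpprc, which handles mitochondrial mRNA (chromosome 17, 85122055 to 85122090, score 17). Each of these 3 had the top SRSF2 score of its unit. Hint1, a nucleotide hydrolase, had peaks of score 18 and 17 among 3 SRSF2 peaks and no SRSF1 peak in its unit.

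**Figure D3:**
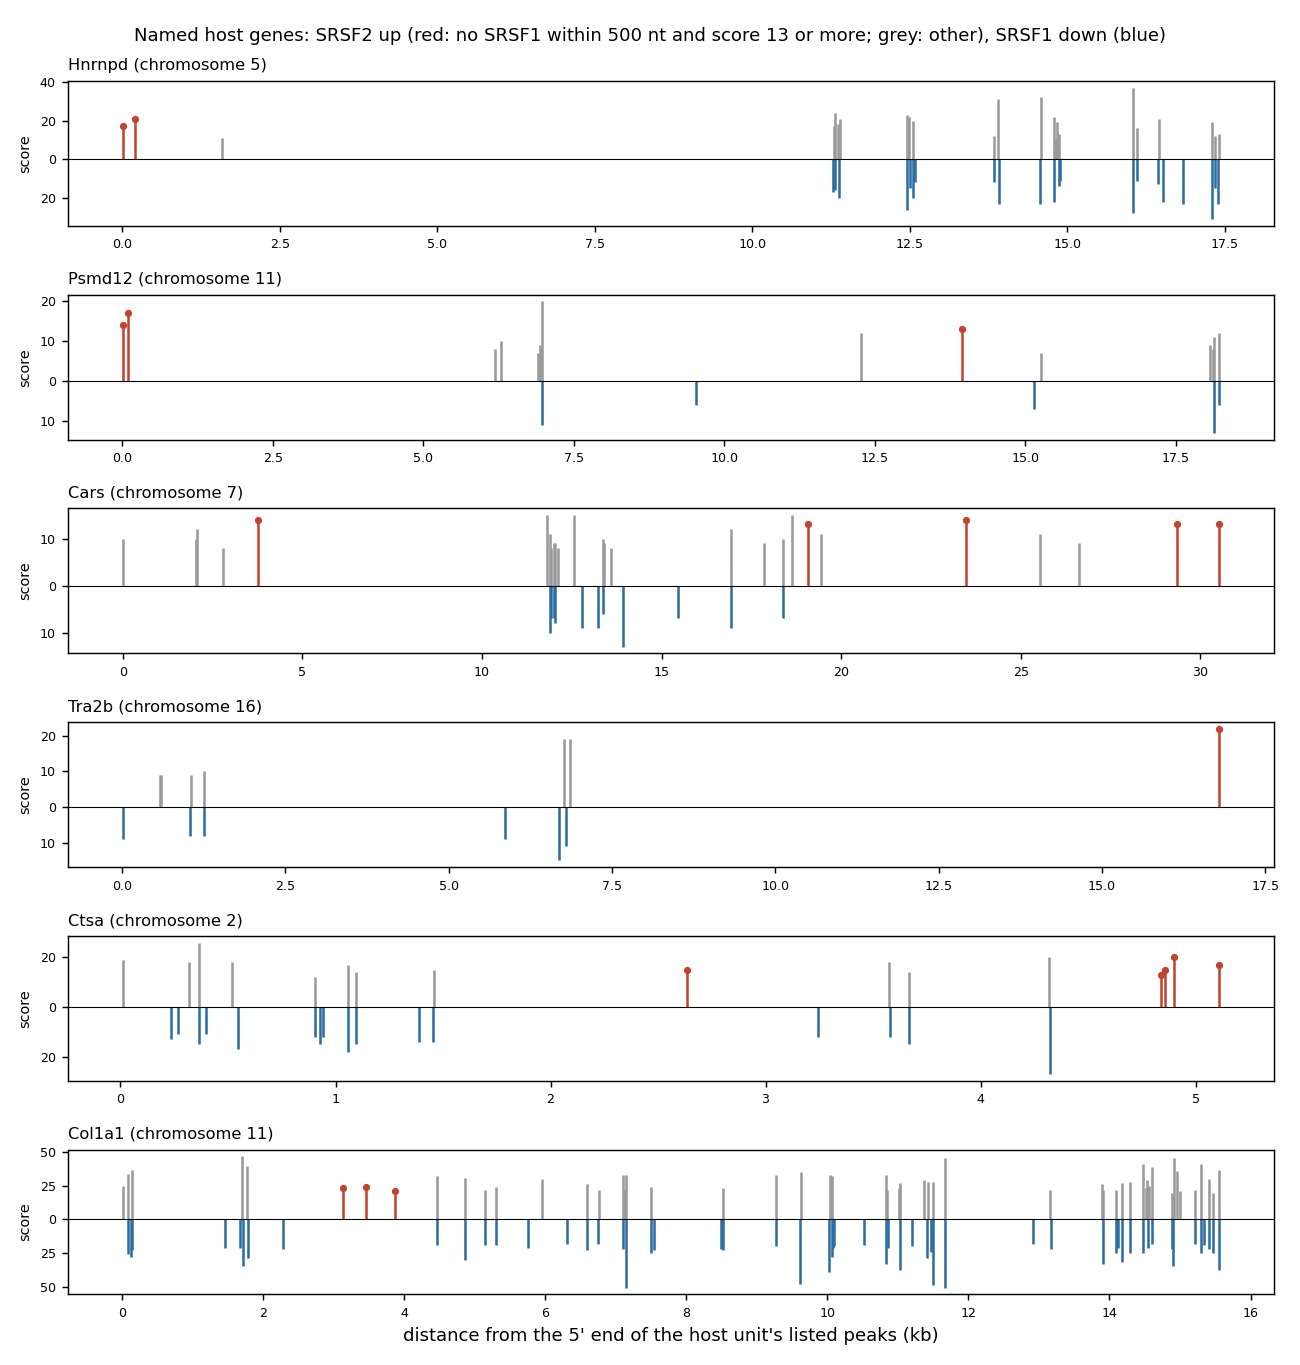
Peaks of 6 named host genes by distance in kb from the 5′ end of the listed peaks, with SRSF2 scores upward and SRSF1 scores downward; red marks strong SRSF2 peaks without SRSF1 within 500 nt, grey other SRSF2 peaks and blue SRSF1 peaks. Scores of the 2 lists are not on a common scale; Hnrnpd and Psmd12 carry such peaks at the 5′ end, Tra2b at the 3′ end and Col1a1 in a gap between SRSF1 peaks.

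SRSF1-distant peaks were also further from other SRSF2 peaks. The rule did not use this spacing directly, but 9110 of 10830 strong SRSF2 peaks had an SRSF1 midpoint within 500 nt. The distance in the rule thus bears on SRSF2 spacing too, and the shares are a description. Another SRSF2 midpoint lay within 500 nt of 778 of the 1720 (45.2%, 42.9 to 47.6), against 75.4% (74.5 to 76.3) of the SRSF1-near peaks and 70.6% of all strong peaks. The nearest other SRSF2 midpoint was at a median of 632 nt and 80 nt. Within units of 2 SRSF2 peaks the shares were 23.5% and 33.6%, in units of 6 to 10 peaks 43.7% and 65.9%, and in units of over 50 peaks 58% and 87.2%. These classes do not match the span or peak density of the units, whose part was not tested. In units with 1 SRSF1 peak the shares were close, at 37.4% and 35.9%. In all, 942 peaks (54.8%) had neither protein within 500 nt.

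**Figure D4:**
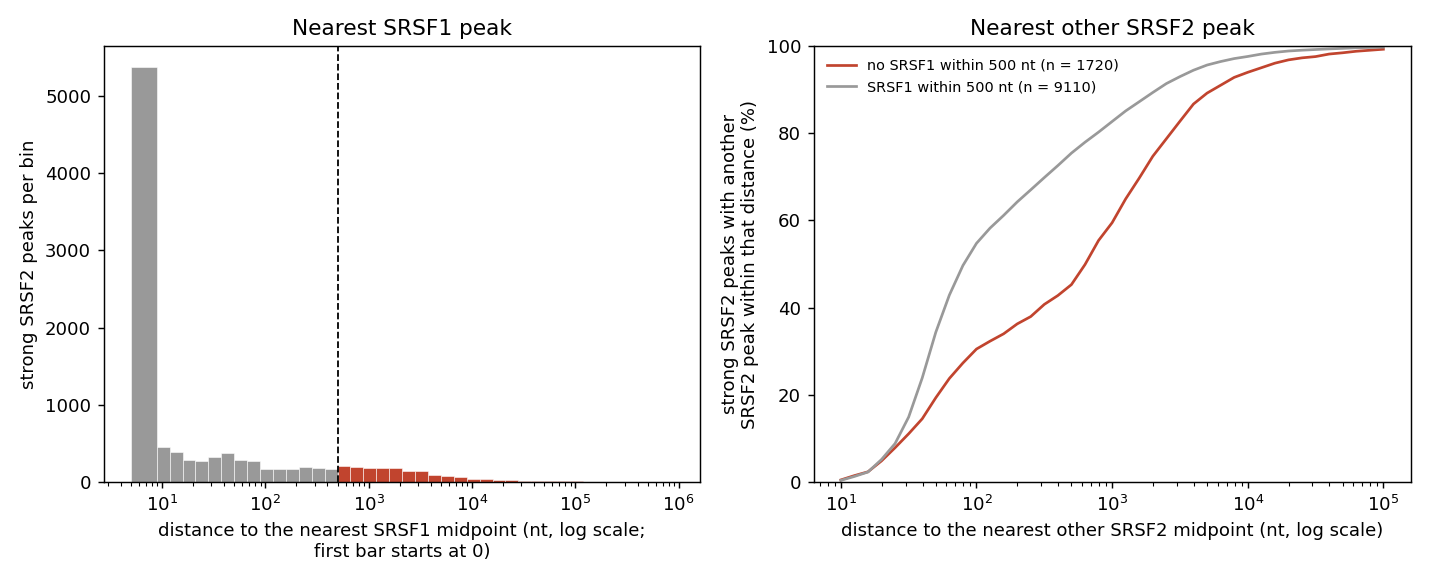
Left, number of strong SRSF2 peaks by distance to the nearest SRSF1 midpoint in nt on a log axis, with the limit of 500 nt dashed and the 1720 peaks beyond it in red. Right, percentage of SRSF1-distant (red) and SRSF1-near (grey) peaks that have another SRSF2 midpoint within the distance on the log axis; at 500 nt the lines stand at 45.2% and 75.4%.

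Peaks were narrow in both sets, and the SRSF1-distant ones somewhat narrower. Their median width was 25 nt (quartiles 19.75 and 30) against 27 nt (21 and 34), and 6.10% (5.02 to 7.34) were at least 40 nt wide against 14.4% (13.7 to 15.1). At scores of 13 to 15 the medians were 24 nt in both sets, at 21 to 30 they were 29 and 31 nt, and at 31 to 50 they were 22 and 36 nt. In the 703 host units that held both kinds, the SRSF1-distant peaks had the lower median width in 415 and the higher in 260, with a median difference of -2 nt.

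Score levels differed between units, so each peak was also ranked among the SRSF2 peaks of its own unit. Of all SRSF1-distant peaks 31.3% had the highest SRSF2 score of their unit, a value that includes 72 peaks that were the only SRSF2 peak there. In units with at least 3 SRSF2 peaks the share was 25.9% (23.8 to 28.2), or 406 of 1567, against 22.1% (21.2 to 23.0) of SRSF1-near peaks and 22.7% of all strong peaks. The median relative rank was 16.7% of the way down the unit in both sets. At the other end, 69 peaks (4.40%) had the lowest SRSF2 score of a unit with at least 3 peaks, against 3.03% (2.68 to 3.41) of SRSF1-near peaks. The number of SRSF2 peaks in a unit bears on both shares, and its median was 12 for SRSF1-distant and 21 for SRSF1-near peaks. Its part was not tested, and the ranks use the score that the rule used, so the shares are a description. A score at least 2 times the lowest of the unit was reached by 25.8% of SRSF1-distant and 34.8% of SRSF1-near peaks. Both conditions, the top score and at least 2 times the lowest, were met by 231 peaks, of which 81 lay between SRSF1 peaks with consecutive numbers.

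The lowest score listed differed between units. In 160 of the 1621 cases with SRSF1 elsewhere in the unit (9.87%, 8.46 to 11.4), the lowest SRSF1 score listed there was 13 or more, against 13.5% (12.8 to 14.2) for SRSF1-near peaks. Col1a1, a chain of type I collagen, is such a unit: its lowest listed scores were 18 for SRSF1 and 20 for SRSF2. Its 3 SRSF1-distant peaks (chromosome 11, plus strand, 94800713 to 94800725, 94801028 to 94801042 and 94801449 to 94801462, scores 23, 24 and 21) ranked 37, 34 and 49 of 52. They stood in 1 gap between listed SRSF1 peaks, where 2 SRSF1 numbers were skipped. Flna, filamin A, had 1 such peak of score 18 that ranked 43 of 51, above a lowest score of 17. Thbs1, thrombospondin, had 3 with scores of 17, 16 and 16 above or at the unit's lowest of 16, and 23 SRSF1 peaks in the same unit.

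The highest scores without SRSF1 nearby came from small or unnamed units, and 83.1% of all SRSF1-distant peaks lay in unnamed clusters. The top 2 were each the only listed SRSF2 peak of an unnamed cluster without SRSF1, on chromosome 7 (minus strand, 52381763 to 52381780, score 107) and chromosome 9 (plus strand, 120039567 to 120039591, score 85). They were 18 and 25 nt wide, and the nearest SRSF1 midpoints lay 23193 and 204895 nt away. The third, on chromosome 16 (plus strand, 23108842 to 23108857, score 55), had 1 SRSF2 peak of score 68 and 1 SRSF1 peak of score 56 in its unit, 975 nt off. Next were a wide peak of 79 nt on chromosome 9 (minus strand, 66883846 to 66883924, score 44), which ranked 4 of 21 in a unit with 16 SRSF1 peaks, and peaks of score 41 on chromosome 1 (180259502 to 180259536), score 41 on chromosome 7 (135113309 to 135113330) and score 40 on chromosome 11 (79053342 to 79053371). The first of these 3 lay 502.5 nt from SRSF1, only just past the limit. The rest of the top 12 were H2bc18 with a score of 38 and unnamed peaks of score 37 on chromosomes 17 and 7 and of score 36 on chromosomes 1 and 11.

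Histone genes supplied the strongest peaks with a gene name. H2bc18, a histone H2B gene (chromosome 3, plus strand), had peaks of score 38 (96073677 to 96073691) and 35 (96074013 to 96074019) and no SRSF1 peak in its unit. H4c4, a histone H4 gene (chromosome 13, plus strand, 23673474 to 23673493), had 1 peak of score 32 and no SRSF1 peak. In all, 5 of the 20 strong SRSF2 peaks in 15 histone genes were SRSF1-distant (25%, 8.66 to 49.1), against 16.2% of strong peaks in named genes. The 4 genes are H2bc18, H2bc3, H4c1 and H4c4, grouped after their values were seen. Copies of a histone gene can be similar in sequence, and whether reads were placed on the wrong copy was not tested. The highest peak in another unnamed unit without SRSF1 was on chromosome 15 (plus strand, 5068586 to 5068595, score 31), with an SRSF1 midpoint of another unit 639.5 nt away.

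The other named genes among the 15 highest-scoring peaks all had SRSF1 elsewhere in the unit. Stk25, a kinase, had its top SRSF2 score of 26 at the 5′ end (chromosome 1, minus strand, 95525807 to 95525838), 1571 nt from SRSF1, with peaks of score 16 and 14 next to it. Uap1l1 had peaks of score 28 and 22 (chromosome 2, minus strand, 25220853 to 25220874 and 25221119 to 25221133). Dpp7, a lysosomal dipeptidase gene that is the nearest named unit to it, had 3 of its 4 strong peaks SRSF1-distant, with scores of 23, 18 and 18. Ppib, the cyclophilin of the endoplasmic reticulum, had 1 of 13 (chromosome 9, 65910817 to 65910844, score 24, rank 2 of 14). Atp6v0b, a subunit of the proton pump, had 1 of 4 (score 24), and S100a6, a calcium-binding protein, 1 of 6 (score 25, the lowest SRSF2 score of that unit). Pdap1 (score 23, rank 2 of 8) and Trir (score 23, the only SRSF2 peak of its unit) complete the 15 with Tra2b, Col1a1 and the histone genes.

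The named genes with at least 3 SRSF1-distant peaks differed in how much of the unit these make up. Dync1h1, the dynein heavy chain, had 5 of 74 strong peaks (6.76%, 2.23 to 15.1), all at ranks from 23 to 59 of 116. Ctsa, the lysosomal protease cathepsin A, had 5 of 15 with scores from 13 to 20, 4 of them in a row downstream of the last SRSF1 peak at the 3′ end (chromosome 2, plus strand, 164664147 to 164664434). Cars, cysteinyl-tRNA synthetase, had 5 of 8 (62.5%, 24.5 to 91.5), with scores of 13 and 14, and SRSF1 up to 12127 nt away. Ctsl, cathepsin L, had 4 of 12, Maged1 4 of 20 and Atp5a1, a subunit of ATP synthase, 4 of 11.

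The remaining 13 genes had 3 each. In Psmd12, Psma7 (a proteasome core subunit), Rfc2 (a subunit of the replication clamp loader), Edc4 (a decapping scaffold) and Dpp7, the 3 were among only 4 strong peaks. Ckap4 had 3 of 5 and Mcm3, a subunit of the replicative helicase, 3 of 6. Prim1, the DNA primase, had 3 of 10, Hells, a chromatin remodeller, 3 of 13, Stk25 3 of 8, Washc4 3 of 12, Thbs1 3 of 10 and Col1a1 3 of 52. The interval for Col1a1 was 1.21 to 15.9%, and over all strong peaks in named genes the share was 16.2%. These genes were picked for their count of SRSF1-distant peaks, most have few strong peaks, and peaks of 1 gene are not independent. Their shares and intervals are thus descriptions and cannot place a gene above or below that 16.2%.

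The gene lists cover named host units only. Of 13 SR protein genes 4 were named with a peak, and Tra2b and Srsf3 held 2 SRSF1-distant peaks of 25 strong ones (8%, 0.984 to 26.0). Among hnRNP and other splicing regulators 4 of 37 qualified (10.8%), in Hnrnpd, Pcbp1 and Tial1. Pcbp1, a poly(C)-binding protein, had a single SRSF2 peak (chromosome 6, minus strand, 86475733 to 86475752, score 16) and no SRSF1 peak, and Tial1 1 peak of score 16. Of 5 strong peaks in core spliceosome genes 1 qualified, in Snrpd3, an Sm protein of the snRNPs (chromosome 10, plus strand, 74982130 to 74982192, score 21). It was 63 nt wide, the highest of the 6 SRSF2 peaks of Snrpd3 and 3.5 times the lowest, with SRSF1 1360 nt away and no unlisted SRSF1 number between.

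Translation factors and chaperones had 4 of 129 strong peaks (3.10%, 0.851 to 7.75), and the actin cytoskeleton and adhesion list 8 of 144 (5.56%, 2.43 to 10.7). Over all strong peaks in named genes the share was 16.2%. Dync1h1 and Flna alone held 74 and 51 of the 144 strong peaks, with 76 and 45 SRSF1 peaks in their units. Peaks of 1 gene are not independent, so the intervals do not test the lists against that share. The SRSF1-distant peaks were in Eif3c (2), Eif3b and Eif4g2, all initiation factor genes, and in Dync1h1 (5), Cnn2, a calponin (2), and Flna (1). The extracellular matrix list had 8 of 87 (9.20%, 4.05 to 17.3, an interval that includes 16.2%), in Col1a1 (3), Thbs1 (3) and Col6a1 (2). Kinases, phosphatases and ubiquitin genes had 1 of 12, in Map4k4 (score 13). Only 4 of the 17 genes of this list and 9 of the 30 of the actin list were named with a peak. Any listed gene in an unnamed unit is left out of these shares. Transcription and chromatin genes had 0 of 21 (exact upper bound 16.1%), where 3 counts of the total, the limit that a count of 0 allows, would be a share of 14.3%. Trafficking genes of the endoplasmic reticulum and Golgi had 0 of 3 (exact upper bound 70.8%). The share went down with the number of SRSF1 peaks in a unit, as given above, and the lists were not matched on that number. The fibroblast marker list had 3 of 52, all in Col1a1, with only Col1a1 and Postn of its 12 genes named with a peak. No marker of neurons, skeletal muscle, macrophages or endothelium was named with a peak, and of the epithelial ones Krt19 alone was, with no strong SRSF2 peak.

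The 10 host units with most SRSF1-distant peaks spanned 8984 to 339083 nt and had no gene name. Unnamed clusters also held 83.1% of all SRSF1-distant and 83.6% of SRSF1-near peaks. One on chromosome 5 (plus strand, 145531966 to 145620286, next to Smurf1 among named units) held 21 of its 60 strong SRSF2 peaks, or 35% (23.1 to 48.4), with 96 SRSF2 and 52 SRSF1 peaks in all. Their scores ran from 13 to 27 and their distances from 529.5 to 5134 nt, and the last 4 lay downstream of every SRSF1 peak. A unit of 339083 nt on chromosome 1 (plus strand, 34025655 to 34364737) held 14 of 134 (10.4%, 5.83 to 16.9) and was the one with most SRSF1 peaks of all, 134. Its first 5 SRSF1-distant peaks, with scores of 24, 15, 25, 15 and 19, came before the first SRSF1 peak of the unit, 27680 to 102094 nt from the nearest SRSF1 midpoint of any unit. A unit on chromosome 4 (minus strand, 123038200 to 123231576) had 12 of 40, among them the unit's top score of 26. A unit on the X chromosome (plus strand, 148237967 to 148369404) had 12 of 74, the highest at rank 10 of 106.

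**Figure D5:**
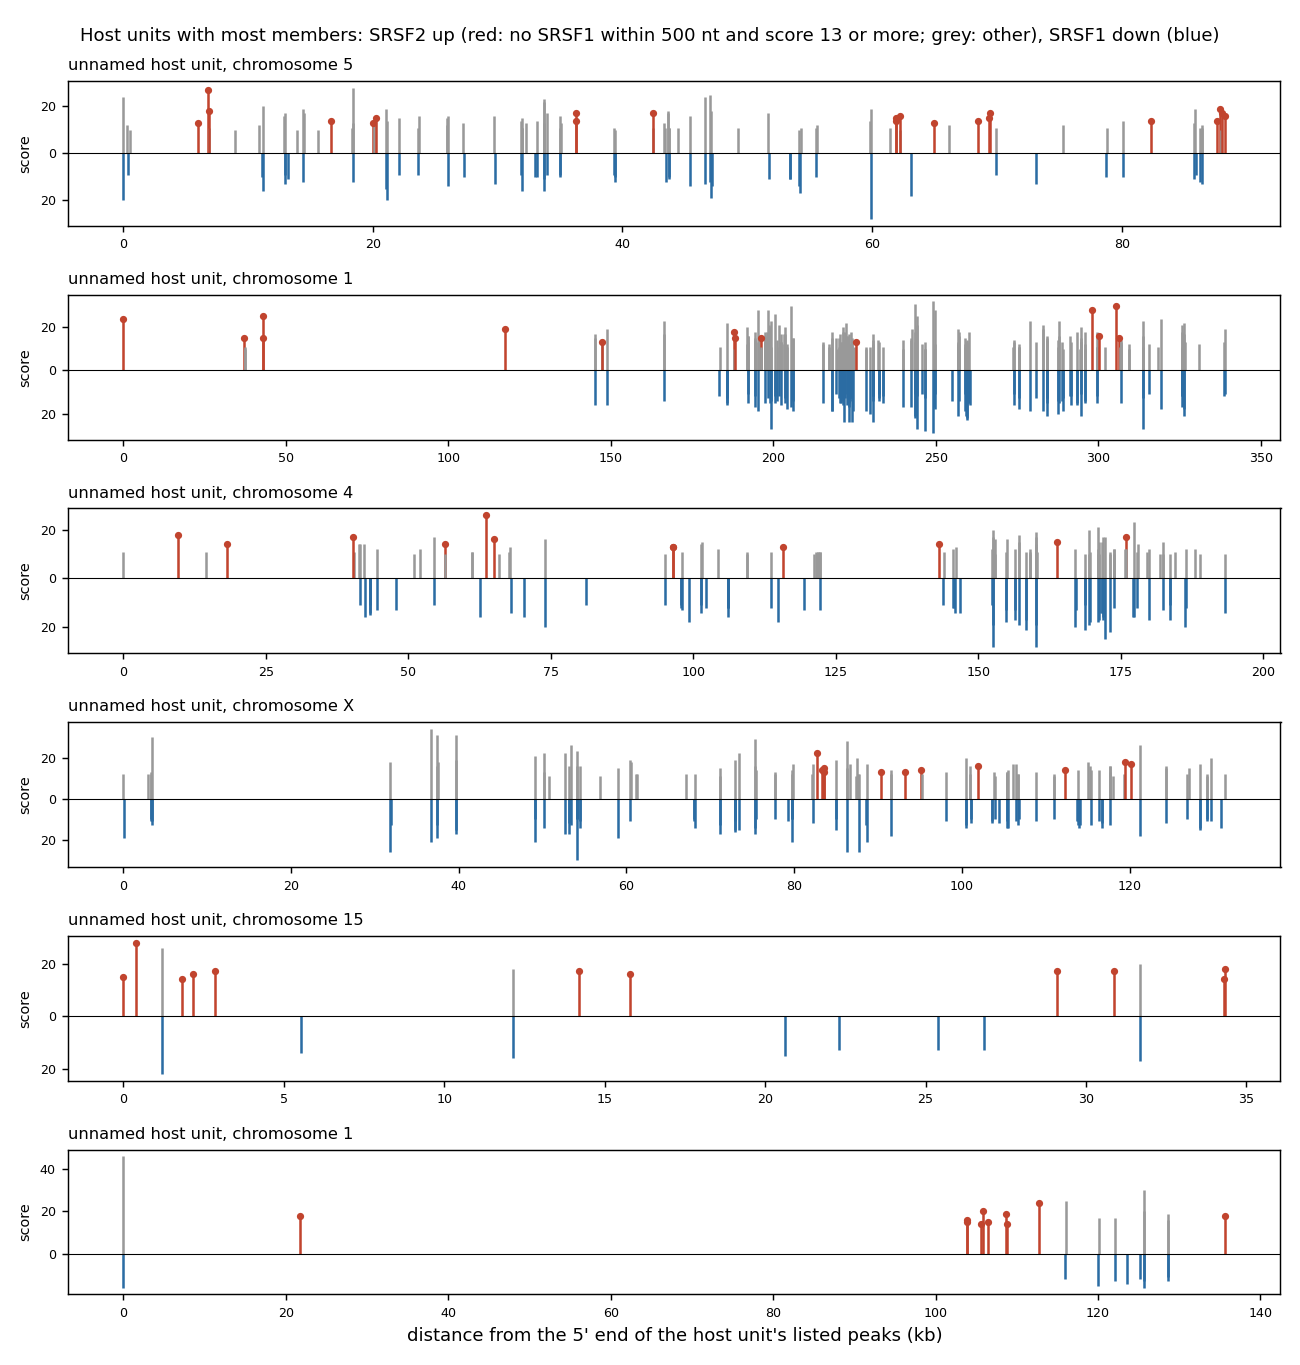
Peaks of the 6 host units with most SRSF1-distant peaks by distance in kb from the 5′ end of the listed peaks, with SRSF2 scores upward and SRSF1 scores downward; red marks strong SRSF2 peaks without SRSF1 within 500 nt, grey other SRSF2 peaks and blue SRSF1 peaks. The first 5 red peaks come before all SRSF1 peaks in the long unit on chromosome 1, and red peaks make up 11 of 14 SRSF2 peaks in the unit on chromosome 15.

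In 3 of the other 6 units these peaks made up over 50% of the strong SRSF2 peaks. On chromosome 15 (minus strand, 98662295 to 98696649, next to Prkag1) 11 of 14 strong peaks were SRSF1-distant (78.6%, 49.2 to 95.3), including the highest score of 28, beside 8 SRSF1 peaks. On chromosome 2 (plus strand, 84877952 to 84886935) 9 of 10 were (90%, 55.5 to 99.7), in a unit of 8984 nt with 1 SRSF1 peak. On chromosome 1 (minus strand, 171905088 to 172040778) 10 of 18 were, at 3291 to 21781 nt from SRSF1, and on chromosome 3 (plus strand, 88420246 to 88451080) 10 of 20, with the top score of 32. The other units of the 10 were on chromosome 15 (76003065 to 76072979, 10 of 46) and chromosome 2 (51931599 to 51977143, 9 of 23). All 10 were picked for their counts.

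Most host units nevertheless held a single SRSF1-distant peak. Of the 1051 host units 709 held 1, 204 held 2 and 138 held 3 or more, and the 34 units with at least 5 accounted for 15% of the peaks. In 348 of the 2504 units with a strong genic SRSF2 peak, every such peak was SRSF1-distant, which took in 402 peaks. Only 44 of the 348 units had 2 or more such peaks and 9 had 3 or more, and the rest held a single strong SRSF2 peak. When SRSF1-distant peaks with midpoints within 500 nt of the next were joined, 1336 of 1506 runs were single peaks, 145 were pairs and 25 were longer. Other SRSF2 peaks were not counted in these runs. The longest run had 8 peaks within 1515 nt on chromosome 1 (minus strand, 165240179 to 165241693, scores 13 to 20), and the next had 6 within 1019 nt on chromosome 15 (minus strand, 76007148 to 76008166, scores 16 to 25).

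The share of strong SRSF2 peaks that were SRSF1-distant ranged from 11.5% (8.71 to 14.8) on the X chromosome and 12.1% on chromosome 19 to 22.6% on chromosome 7 and 26.0% (20.4 to 32.3) on chromosome 13. On the plus strand lay 52.6% of SRSF1-distant and 49.7% of SRSF1-near peaks.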

How the data were processed

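Each library has 1 peak list (BED format) deposited by the authors. The build is mm9, per the submitters' processing notes, and positions are printed 1-based. Of how reads were aligned and peaks called, nothing is given in the sources used here, and depth is unknown. The score deposited by the authors takes whole values from 4 upward, and its meaning is unknown. Distances are between midpoints on the same strand. Host unit and number come from the peak name; numbers increased along the chromosome in every genic unit with 2 or more peaks (5623 for SRSF1, 5638 for SRSF2). Symbols were matched by RefSeq accession (2155 of 2169) in a table of GRCm38.p6, used for names only.

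With 1 library per protein no test was made and no p-value computed. Members, 9 gene lists, 6 marker lists and naming rules were chosen with earlier results of these data known. Named were the 12 highest-scoring peaks, the 10 units with most, the 15 highest in named genes, genes with at least 3, the 6 highest in units without SRSF1, up to 4 genes per list, and the unit with most SRSF1 peaks; the 10 highest named peaks over 5000 nt from SRSF1 and the histone group were added after values were seen. The midpoint distance function recovered all 2507 planted states in simulated data. The function for gaps between peak ends counted 1092 peaks within 500 nt, the same number as bedtools 2.31.1. Python 3.11.15, pandas 2.3.3 and scipy 1.17.1 were used.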

Additional observations from a re-analysis of the deposited data

How the results depend on the processing

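Chromosomes left out in turn gave an SRSF1-distant share of 15.5% to 16.2%, and the gap between peak ends, either strand or nongenic units moved no value beyond its interval. The share of strong SRSF2 peaks was 21.3% with a window of 200 nt, 11.5% at 1000 nt and 3.38% at 5000 nt; 22.4%, 7.09% and 4.13% at scores of at least 10, 20 and 30; 19.6% for the highest peak of each host unit, 15.04% in units with at least 3 SRSF2 peaks and 17.0% with peaks merged across gaps of 20 nt or less. The 19.6% took the highest strong SRSF2 peak of each of 2504 host units. For the values that follow, 1 per unit means the highest-scoring SRSF1-distant peak of each of 1051 host units. In the same order of settings, the share with another SRSF2 peak within 500 nt was 54.0% (200 nt), 37.2% (5000 nt), 42.8% (score 10), 25.9% (score 30), 35.9% (1 per unit), 48.4% (3 peaks) and 34.1% (merged). The share with SRSF1 elsewhere in the unit was 95.7%, 92.2% and 75.7% at 200, 1000 and 5000 nt, 92.8% and 74.1% at scores 20 and 30, 91.9% with 1 per unit and 97.9% with 3 peaks. The share with the top score was 27.8%, 36.0% and 55.7% at the 3 windows, 26.8% and 42.6% at scores 10 and 20, 50.05% with 1 per unit and 25.9% with 3 peaks. Median width was 27 nt (5000 nt), 22, 28 and 22 nt (scores 10, 20 and 30), 27 nt (1 per unit) and 26 nt (merged). The share in RefSeq-named units was 14.9% (1000 nt), 19.4% (5000 nt), 14.9% (score 20), 11.1% (score 30) and 18.7% (1 per unit). Median position was 45.6% (1000 nt), 17.1% (5000 nt), 43.5% (score 20) and 46.9% (1 per unit). For peaks over 5000 nt from SRSF1 it was 11.5% with the highest such peak of each unit and 12.3% to 18.4% without 1 chromosome. It moved to 38.2% without the outermost peaks of units, which hold the extremes by construction. These settings were added after seeing the data. Of 106 recomputed values 46 left the interval; fewer or more peaks enter by construction and other causes were not tested. No paired analysis was possible because each protein has 1 library. Depth is unknown, and a peak missing from a list does not show that a protein was absent.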
